A study of Mus musculus with 16 samples.

Results

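The 6 genes described here, Cd3d, Cd3e, Cd3g, Trac, Trbc1 and Trbc2, encode the invariant CD3 chains and the constant regions of the alpha and beta chains of the T-cell receptor. They were taken by name from the 11713 genes counted in spleen cells by CITE-seq, and all 6 were present. In this method each droplet yields a cell's mRNA counts together with counts of DNA tags carried by bound antibodies. The cells came from the spleens of female BALB/cJ mice aged 9 months. No group was treated or carried an allele, and red blood cells had been lysed before staining. The labels list 16 samples in 4 groups of 4, RNA and antibody samples of 2 sources named Main1 and Main2. The deposited tables do not tell the samples of a group apart, so each source was taken as 1 library (n = 2). The design text speaks of a pair of spleens, but the labels do not say that Main1 and Main2 are those animals, so the spread between them may be technical. The comparisons ask in which gated populations each gene was found, and how 2 antibodies against the same complex, anti-CD3 and anti-TCR, related to these transcripts.

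The T-cell receptor of most T cells is a heterodimer of an alpha and a beta chain that binds peptide on MHC molecules and has almost no cytoplasmic part of its own. It signals through the CD3 gamma, delta and epsilon chains and a zeta-chain dimer encoded by Cd247, whose cytoplasmic motifs are phosphorylated by the kinase Lck. A mouse beta locus carries a pair of constant genes, Trbc1 and Trbc2, and rearrangement joins a variable exon to one of them on a given allele. Gamma-delta T cells also use CD3 chains, with a receptor made from Trdc and the Tcrg constant genes. Natural killer (NK) cells have no rearranged T-cell receptor, and mouse NK cells use Cd247 with other receptors. Anti-TCR antibodies for mouse spleen are commonly raised against the beta chain, but which clone was used here is not stated in the labels.

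Gates were set from antibody tags other than CD3 and TCR. An antibody was called positive where a mixture of 2 Gaussian components put a droplet in the upper component. The pan-T gate was CD90-positive, CD5-positive and negative for the B-lineage antigens B220 and CD79b, and it was divided by CD4 and CD8a. It held 652 droplets (311 in Main1, 341 in Main2), of which 344 fell in the CD4 gate and 80 in the CD8 gate. The NK gate took droplets with 5 or more NKp46 tags and no B-lineage antigen or CD5, 133 in all. The B gate, positive for both B-lineage antigens and negative for CD5 and CD90, held 4925 droplets. The myeloid gate (CD11b-positive) held 187 and the erythroid gate (Ter119-positive) 46. A further 223 pan-T droplets were positive for both CD4 and CD8a. They had a median of 4372 unique molecular identifiers (UMIs, counted RNA molecules) against 2008 in the CD4 gate and 2368.5 in the CD8 gate, and were kept out of both.

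Main1 had 3179 droplets and 7964712 UMIs, with a median of 1789 UMIs per droplet, and Main2 had 3918 droplets and 10174799 UMIs, with a median of 1778. The libraries shared 14 cell barcodes, of which 1 droplet lay in the NK gate and 2 in the pan-T gate. The labelled lineages were checked on fixed marker lists. The CD4 and CD8 gates differed in Cd4 and Cd8b1 as their antibodies did: Cd8b1 had 9.29 CPM (UMIs of a gene per 1e+06 UMIs of the gate) in the CD4 gate of Main1 and 14.3 in Main2, against 1339 and 1299 CPM in the CD8 gate. All 11 tested NK markers were higher in the NK gate than in the B gate, among them Ncr1, the gene of NKp46, with 2440 and 2052 CPM against 4.95 and 9.56 CPM. The NK gate was not pure: 3 of its droplets were Ter119-positive and 2 Ly6G-positive, and Lyz2, a myeloid gene, reached 8493 CPM there in Main2 against 501 CPM in Main1. The 8 erythroid genes summed to 22181 CPM in NK droplets of Main1 and 451 CPM in those of Main2, against 2363 and 1558 CPM in B droplets.

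In the CD4 gate all 6 genes were abundant and close between the libraries. Cd3d, which encodes the CD3 delta chain, averaged 865 ± 1.64 CPM (SD, n = 2), Cd3e (epsilon) 967 ± 33.6 CPM and Cd3g (gamma) 1241 ± 70.5 CPM. Trac, the alpha constant gene, averaged 913 ± 4.28 CPM, Trbc1 1000.4 ± 131 CPM and Trbc2 2069 ± 161 CPM. In the CD8 gate, with 23 droplets in Main1 and 57 in Main2, the libraries lay further apart for 4 of the 6 genes. Cd3d had 1027 CPM in Main1 and 618 in Main2, Cd3e 732 and 961, Trac 763 and 515, and Trbc1 1385 and 589. Cd3g (860 ± 5.73 CPM) and Trbc2 (1259 ± 24.3 CPM) kept close. At least 1 UMI of the 6 genes was found in 342 of 344 CD4 droplets (99.4%, exact binomial 95% interval 97.9 to 99.9) and in all 80 CD8 droplets (interval 95.5 to 100). Single genes were missed more often. Trbc2 had a UMI in 93.6% of CD4 droplets and 85.0% of CD8 droplets, Trac in 79.7% and 68.8%, and Trbc1 in 58.1% and 63.8%.

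None of the 6 genes passed the test between the CD4 and CD8 gates, a comparison in which 49 of 2693 genes were called (1.82%, 1.04% higher and 0.78% lower; edgeR quasi-likelihood test on UMI sums, library as a block, Benjamini-Hochberg adjusted p under 0.05). The log2 differences of CD4 over CD8 ran from 0.00 for Cd3d (SE 0.261) to 0.59 for Trbc2 (SE 0.266, adjusted p = 0.458), and 1 of the 6, Trbc2, had an unadjusted p under 0.05. Without the filter on low counts the edgeR value of Trbc2 was 0.79 with an adjusted p of 0.0205. Trbc2 had 1955 and 2183 CPM in the CD4 gate against 1276 and 1242 CPM in the CD8 gate, and the libraries of the gates did not overlap. Cd3g did not overlap either, with 1191 and 1291 CPM against 856 and 864 CPM. The share of all tested genes without such overlap was not counted. For Cd3d and Trbc1 the libraries pointed in opposite directions. All 4 tested erythroid genes, each a haemoglobin gene, were called higher in the CD4 gate. The difference lay in Main1 (Hbb-bs at 2608 CPM in CD4 and 93.4 CPM in CD8 droplets), and Main2 did not share it (117 and 114 CPM). Of 6 tested B genes 2 were called. Igkc, the kappa light chain gene, was higher, with 5236 and 29275 CPM in the CD4 against 1136 and 19944 CPM in the CD8 gate. Ighm, the mu heavy chain gene, was called lower, with 467 and 2093 against 451 and 8161 CPM, a difference that Main1 did not share. The part of these erythroid and B genes in the result was not tested. Of 5 tested NK genes 2 were called lower in CD4 droplets. Nkg7, a granule protein gene, had 195 and 220 CPM against 949 and 1522 CPM. Gzma, granzyme A, had 153 and 23.9 CPM against 31.1 and 1339 CPM, so it was lower in Main2 but higher in Main1. Of 22 tested genes that act close to the receptor, 1 was higher in CD4 droplets (Cd4) and 2 were lower (Cd8a, Cd8b1). Of 15 other pan-T genes 1 was higher, Cd5, a receptor that dampens T-cell receptor signals, by 1.92 on the log2 scale (SE 0.482, adjusted p = 0.00531, edgeR).

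**Figure D1:**
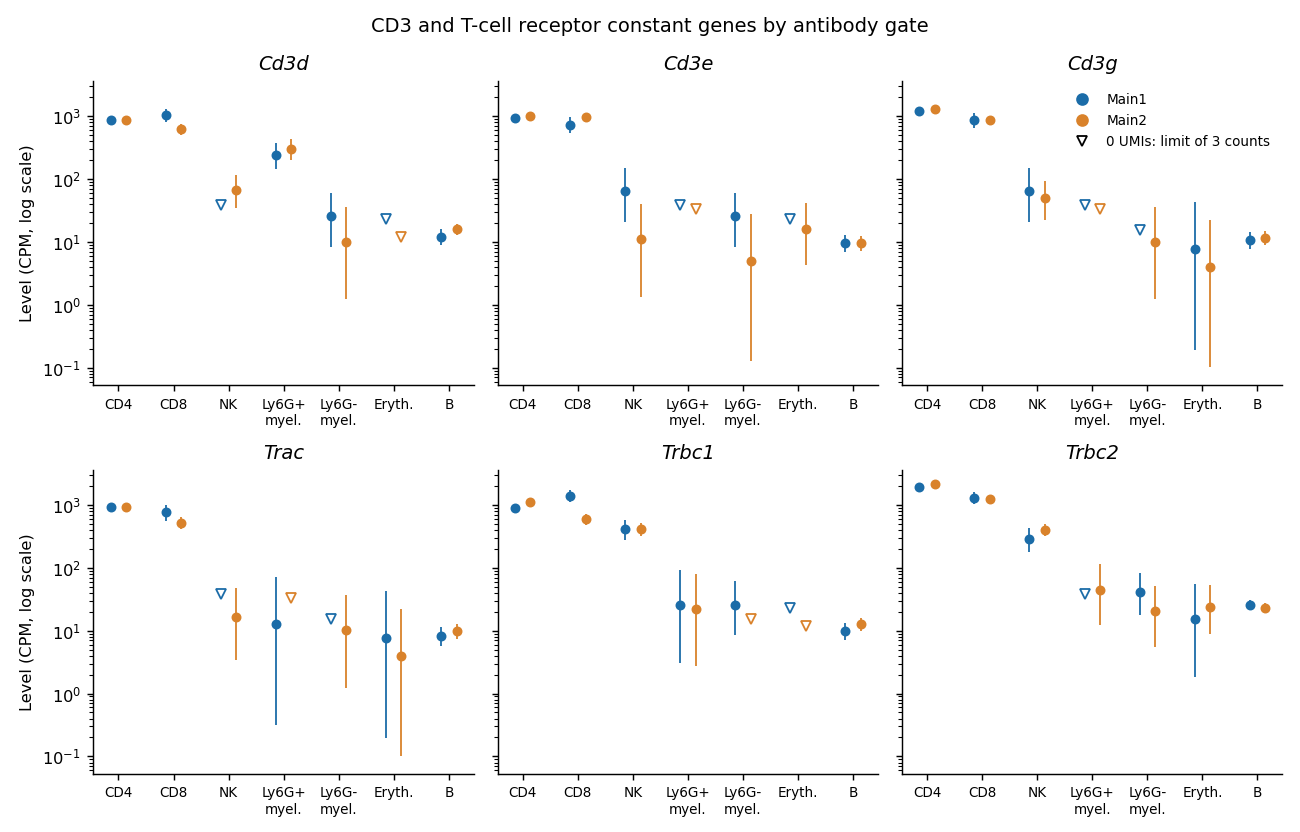
Level of each gene in CPM (log scale) by antibody gate, 1 point per library with an exact Poisson 95% interval that covers counting error only; open triangles mark gates with 0 UMIs, drawn at the limit that 3 counts would give. All 6 genes stand at 515 CPM or more in the CD4 and CD8 gates, Trbc1 and Trbc2 at 283 to 411 CPM in the NK gate, and Cd3d at 241 and 302 CPM in Ly6G+ myeloid droplets.

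Trbc1 and Trbc2 lie 6849 bases apart on mouse chromosome 6 and code for nearly the same chain. In GENCODE vM21 (GRCm38) Trbc1 spans chr6:41538218-41539881 and Trbc2 chr6:41546730-41548352, both on the plus strand, with 4 coding exons each. Their coding parts of 518 bases differ at 23 positions (95.6% identity). The first exon of 375 bases holds 1 of these differences, and the other 3 exons, of 143 bases together, hold 22. Those 3 exons are printed, spliced, because they are the coding stretch in which reads of one gene can be told from the other; capitals mark the bases that differ between them. They come from chr6:41539114-41539662 for Trbc1 and chr6:41547610-41548178 for Trbc2, in the GENCODE transcripts.
Trbc1: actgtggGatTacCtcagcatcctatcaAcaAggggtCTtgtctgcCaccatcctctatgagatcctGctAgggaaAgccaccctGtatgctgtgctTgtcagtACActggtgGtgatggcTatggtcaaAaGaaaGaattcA
Trbc2: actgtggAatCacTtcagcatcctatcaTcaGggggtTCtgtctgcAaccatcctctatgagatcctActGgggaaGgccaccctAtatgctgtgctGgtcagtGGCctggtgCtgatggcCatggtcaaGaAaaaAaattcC
The labels do not say how reads of the shared first exon were assigned or whether they were kept. The split between these genes and their sum are therefore both uncertain.

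Of all Trbc UMIs in the CD4 gate, Trbc1 had 32.6% (31.7% in Main1, 33.4% in Main2). In the CD8 gate its share was 52.0% in Main1 and 32.2% in Main2, so the libraries disagreed. Within single droplets the pair was uneven. Among 228 CD4 droplets with 5 or more Trbc UMIs, 74 had a Trbc1 share of 10% or less, 147 lay between and 7 had 90% or more. Trbc2 was found in most droplets whether Trbc1 was there or not: it had a UMI in 91.5% of 200 CD4 droplets with Trbc1 and in 96.5% of 144 without. In the CD8 gate 12 of 44 such droplets had a Trbc1 share of 10% or less, 29 lay between and 3 had 90% or more. Droplets with Trbc2 nearly alone outnumbered those with Trbc1 nearly alone in the CD4 gate of both libraries (36 against 2 in Main1, 38 against 5 in Main2). In the CD8 gate they did so in Main2 (11 against 2), while Main1 had 1 of each among 14. Most droplets held both.

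**Figure D2:**
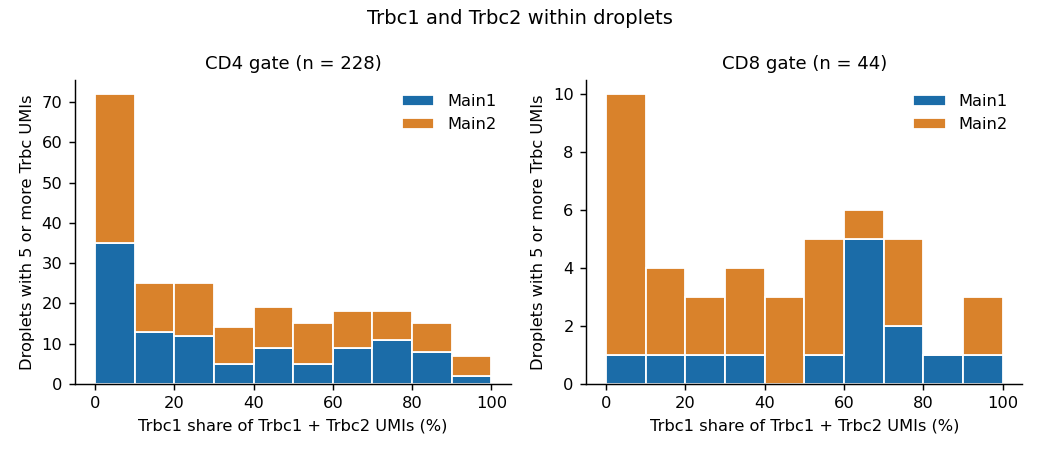
Trbc1 share of Trbc1 and Trbc2 UMIs (%) in droplets with 5 or more of them, stacked by library, in the CD4 gate (228 droplets) and the CD8 gate (44 droplets). The tallest bar in both gates is the one under 10%; in the CD4 gate 7 droplets reached 90% or more.

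The NK gate held Trbc1 and Trbc2 transcripts with few of the other 4 genes. Trbc1 had 411 and 407 CPM in NK droplets against 9.89 and 12.8 CPM in B droplets (Main1 and Main2 each), and Trbc2 had 283 and 402 CPM against 25.9 and 23.3 CPM. NK levels were 43.9% of those of the pan-T gate for Trbc1 and 21.4% for Trbc2, but 1.53% for Trac, 3.10% for Cd3e, 4.99% for Cd3g and 5.60% for Cd3d. In B droplets all 6 genes were at 1.04 to 1.72% of the pan-T level. Against the B gate, 881 of 8495 genes were called (10.4%, 4.46% higher and 5.91% lower in NK), and of the 6 genes 3 were higher and none was lower (edgeR). Trbc1 was higher by 4.90 on the log2 scale (SE 0.270, adjusted p = 1.46e-69) and Trbc2 by 3.60 (SE 0.264, adjusted p = 9.85e-40). These p-values take the spread from the trend over all genes, since the fit had 1 residual degree of freedom. Cd3g was higher by 2.03 (SE 0.620, adjusted p = 0.0130), from 5 and 9 UMIs, and this call was lost with DESeq2 (adjusted p = 0.112) and at 10 or more NKp46 tags (edgeR adjusted p = 0.859). Cd3d (1.31, SE 0.624), Cd3e (1.31, SE 0.853) and Trac (0.02, SE 1.18) did not pass. With the mixture set on a log-ratio within each droplet Cd3d passed (1.81, edgeR adjusted p = 0.00824). Without Ly6G- or Ter119-positive droplets Trbc1 stood at 4.89 and Trbc2 at 3.61.

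Per droplet, 72 of 133 NK droplets had a Trbc1 or Trbc2 UMI (54.1%, interval 45.3 to 62.8), 53.2% in Main1 and 54.7% in Main2. Of these 72, 58 had no UMI of Cd3d, Cd3e, Cd3g or Trac (80.6%, interval 69.5 to 88.9). The antibodies did not follow: 1 of the 72 was TCR-positive and 2 were CD3-positive. B droplets served as the comparison, since B cells do not use these genes. Free RNA itself was not measured, and the gates differ, since CD90-positive droplets were left out of the B gate only. At nearly the same median depth (1630 UMIs in NK and 1641 in B droplets), a UMI was found in 39.8% of NK against 2.29% of B droplets for Trbc1, and in 29.3% against 4.71% for Trbc2. Trac had a UMI in 1.50% of NK against 1.77% of B droplets, at the B level. Cd3g was found in 8.27% against 2.19%, Cd3d in 7.52% against 2.82% and Cd3e in 4.51% against 1.87%. Trbc1 made up 52.7% of the Trbc UMIs of NK droplets (59.3% in Main1, 50.3% in Main2) against 35.2% in the pan-T gate (36.0% and 34.7%), and the libraries did not overlap.

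Genes around the receptor were in part shared by NK droplets. Of 18 tested proximal signalling genes 8 were higher in the NK than in the B gate and 1 was lower, with a median log2 difference of 0.68 against -0.18 over all tested genes. Cd247, the zeta chain, had 103 and 88.0 CPM in NK droplets against 3.27 CPM in B droplets of both libraries together (log2 4.60, SE 0.670, adjusted p = 2.87e-10, edgeR), and 201 and 170 CPM in the pan-T gate. The largest difference was that of Txk, a Tec-family kinase, at 5.54, followed by Cd247 and the kinase Zap70, which binds phosphorylated CD3 and zeta chains, at 4.08; Lck stood at 2.87. Of 8 tested pan-T genes 5 were higher, among them Ms4a4b (4.98), Il7r, the interleukin-7 receptor alpha chain (4.40), and Thy1, which encodes CD90 (2.98), and 1 was lower. B droplets were CD90-negative by their gate, while the NK gate had no limit on CD90. The Thy1 difference was thus partly set by the gates. Trdc, the delta constant gene, had a UMI in 21.1% of NK droplets against 0.142% of B droplets, with 154 and 127 CPM against 0.471 and 0.902 CPM. Tcrg-C1 and Tcrg-C2 had 0 UMIs in the NK gate, and Tcrg-C4 had 5. The 6 of 9 tested myeloid genes that were called higher in the NK gate included Lyz2, at 501 and 8493 CPM against 86.4 and 88.2 CPM. Lyz2, Fcgr3 and Cd68 were higher in both libraries. Ngp (89.9 against 111 CPM) and S100a9 (128 against 209 CPM) were lower in NK droplets of Main1 and higher in Main2 only. The part of the myeloid genes in the Trbc result was not tested, beyond the values without Ly6G-positive droplets given above.

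Cd3d was the 1 gene of the 6 with a clear level in myeloid droplets. The myeloid gate as a whole had 94.6 ± 8.89 CPM of Cd3d (SD, n = 2) against 13.9 ± 2.73 CPM in the B gate, while Cd3g had 2 UMIs in all its 187 droplets and Trac 3. The split by Ly6G, a neutrophil antigen, was chosen after these values were seen. In Ly6G+ myeloid droplets Cd3d had 241 CPM in Main1 and 302 CPM in Main2, 33.1% of the pan-T level, and in Ly6G- droplets 25.9 and 10.1 CPM. A Cd3d UMI was found in 27 of 48 Ly6G+ droplets (56.3%, interval 41.2 to 70.5), in 7 of 139 Ly6G- droplets (5.04%) and in 139 of 4925 B droplets (2.82%). The medians were 2643.5 UMIs in Ly6G+ and 2294 in Ly6G- droplets. Of the 27, 21 had no UMI of the other 5 genes. Cd3e and Cd3g had 0 UMIs in Ly6G+ droplets, which allows up to 17.8 CPM of each over both libraries (3 counts, counting error only), and Trac had 1. No single droplet carried the result, since the top one held 10.5% of the Cd3d UMIs in Main1 and 25.9% in Main2. No test was planned for these droplets, and none is given.

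Cd3d and Cd3g start 1355 bases apart on chromosome 9 and are read in opposite directions, and Cd3e lies 11401 bases beyond the end of Cd3d. In GENCODE vM21 (GRCm38) they span chr9:44981786-44987339 (plus strand), chr9:44969572-44980431 (minus strand) and chr9:44998740-45009627 (minus strand), in the order Cd3d, Cd3g, Cd3e. They went together in T droplets and apart in Ly6G+ droplets, so the 250 bases before each start site are shown, from the RefSeq promoter table (GRCm38.p6), in the direction of each gene. These are chr9:44981536-44981785 for Cd3d, chr9:44980432-44980681 for Cd3g and chr9:45009612-45009861 for Cd3e. Capitals mark matches, on either strand, to the E-box CANNTG, the TCF/LEF letters CTTTGA, the GATA letters AGATAA, the RUNX letters TGTGGT or TATAAA.
Cd3d: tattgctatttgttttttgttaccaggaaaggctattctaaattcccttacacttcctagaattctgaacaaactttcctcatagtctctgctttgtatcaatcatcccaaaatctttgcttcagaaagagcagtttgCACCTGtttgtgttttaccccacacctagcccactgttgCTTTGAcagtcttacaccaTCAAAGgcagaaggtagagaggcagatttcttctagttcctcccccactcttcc
Cd3g: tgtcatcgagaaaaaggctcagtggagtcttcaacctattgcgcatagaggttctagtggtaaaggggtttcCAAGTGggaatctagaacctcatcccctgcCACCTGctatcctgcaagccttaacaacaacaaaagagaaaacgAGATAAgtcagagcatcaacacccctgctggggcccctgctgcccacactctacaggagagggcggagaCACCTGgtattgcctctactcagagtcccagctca
Cd3e: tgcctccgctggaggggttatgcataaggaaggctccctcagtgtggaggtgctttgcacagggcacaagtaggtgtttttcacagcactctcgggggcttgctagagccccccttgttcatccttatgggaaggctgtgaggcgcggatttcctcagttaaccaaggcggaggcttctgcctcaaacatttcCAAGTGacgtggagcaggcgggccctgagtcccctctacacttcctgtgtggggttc
An E-box was found once before Cd3d, 3 times before Cd3g and once before Cd3e, and 66.2% of 32851 such upstream windows hold one. The letters CTTTGA matched at 2 places before Cd3d and at none before the other genes (13.8% of windows), and AGATAA at 1 place before Cd3g (9.99% of windows). TGTGGT (14.1% of windows) and TATAAA (12.4%) matched in none of the 3 windows. None of these matches overlapped another. The table has no entry for Trac, Trbc1 or Trbc2.

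The order of gates by level was alike at the top for each gene and differed below. The CD4 and CD8 gates led, with neighbouring libraries overlapping for Cd3d, Cd3e and Trbc1. For Trbc1 and Trbc2 the NK gate came next, above the remaining gates in both libraries. For Cd3d the Ly6G+ myeloid droplets came next. In the erythroid gate Cd3d and Trbc1 had 0 UMIs, which allows up to 7.90 CPM over both libraries, and the other 4 genes had 2 to 8 UMIs. Over the 6 gates in both libraries (12 points, which share libraries and differ in depth), the genes whose level was most like the mean of the 6 were Lat (Pearson r 0.989), Scg5 (0.987), Bcl11b (0.984), Thy1 (0.981) and 1700097N02Rik (0.977). Of the 6 themselves Cd3g came closest (0.985) and Cd3d was furthest (0.898). CD90, the protein of Thy1, was among the antibodies that set the gates.

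The antibodies called nearly the same number of droplets. CD3 was positive in 932 of 7097 droplets (13.1%, from 8 tags up) and TCR in 973 (13.7%, from 28 tags up). The positive droplets had a median of 20 CD3 tags, against 1 in negative droplets, and of 117 TCR tags, against 5. In the CD4 gate the medians were 14 CD3 and 89.5 TCR tags and in the CD8 gate 11 and 76.5. The NK, B, myeloid and erythroid gates had medians of 1 or 2 CD3 tags and of 4 or 5 TCR tags. In the pan-T gate 82.6% of droplets in Main1 and 88.6% in Main2 were CD3-positive, and 96.8% and 97.4% were TCR-positive. The CD3 and TCR tags of pan-T droplets varied together, with a Spearman rho of 0.80 in Main1 (311 droplets) and 0.86 in Main2 (341 droplets).

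With tags scaled across droplets, more of the droplets that held the transcripts were TCR-positive than CD3-positive; on the log-ratio scale given below the shares were nearly equal. Droplets were classed by the summed UMIs of Cd3d, Cd3e, Cd3g and Trac, leaving out the Trbc genes because NK droplets hold them; this sum and its limits were chosen after the data had been seen. Of 721 B-lineage-negative droplets with 3 or more such UMIs, 83.4% were CD3-positive (interval 80.4 to 86.0) and 94.9% TCR-positive (interval 93.0 to 96.4). By library the shares were 80.0% in Main1 and 86.4% in Main2 for CD3, and 95.9% and 94.0% for TCR. TCR alone was positive in 99 of them, CD3 alone in 16 and neither in 21. Among 579 B-lineage-negative droplets with 0 such UMIs, CD3 was positive in 2.76% (interval 1.59 to 4.45) and TCR in 1.73% (interval 0.831 to 3.15), and these intervals overlap. With the mixture set on a log-ratio of the tags within each droplet, an alternative chosen after seeing the data, CD3 was positive in 96.1% (94.6 to 97.3) and TCR in 96.0% (94.4 to 97.2) of 846 droplets with 3 or more UMIs. By library these shares were 94.8% in Main1 and 97.3% in Main2 for CD3, and 95.8% and 96.2% for TCR, so their order differed between the libraries. Among 601 droplets with 0 such UMIs CD3 was then positive in 19.3% (16.2 to 22.7) and TCR in 0.998% (0.367 to 2.16).

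Tag minimums set without a mixture were tried over droplets of all lineages. At 8 CD3 tags, 81.5% of droplets with 3 or more UMIs were found in Main1 and 87.6% in Main2, with 2.69% and 2.45% of the droplets with 0 UMIs. At 28 TCR tags the shares were 95.5% and 94.7%, with 1.84% and 1.51%. Lowering the limit to 4 CD3 tags found 96.4% and 97.0% but took 17.6% and 16.1% of the droplets with 0 UMIs. The area under the curve of these shares was 0.971 and 0.977 for CD3, 0.989 and 0.981 for TCR, 0.996 and 0.993 for CD5, and 0.956 and 0.968 for CD90 (Main1 and Main2 each). The libraries of CD3 and TCR did not overlap in these areas, though in Main2 they lay close. On the log-ratio scale the areas were 0.980 and 0.983 for CD3 and 0.996 and 0.988 for TCR.

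**Figure D3:**
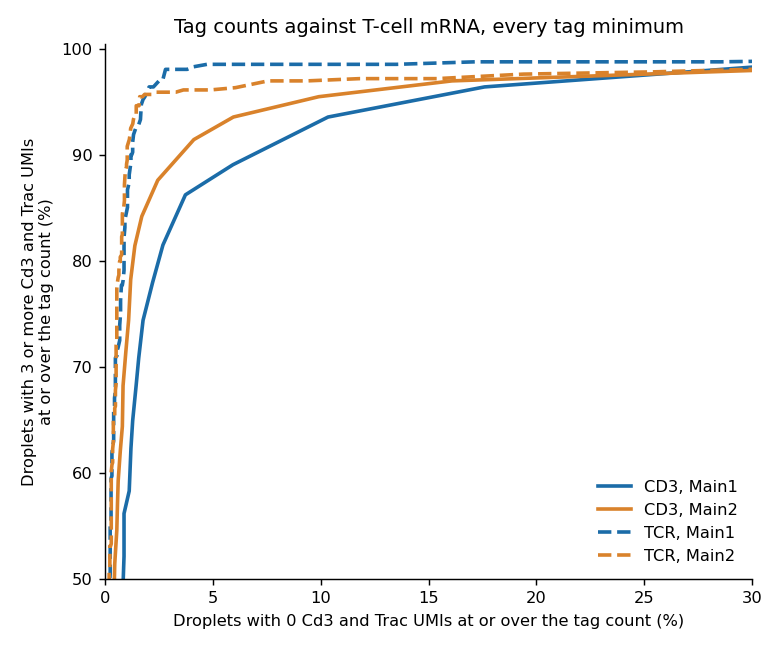
Share of droplets with 3 or more UMIs of Cd3d, Cd3e, Cd3g and Trac at or over a tag count (%), against the share of droplets with 0 such UMIs at or over it (%), for every tag minimum; solid lines are CD3, dashed lines TCR, colours the libraries. The axes start at 50% and end at 30%. In both libraries the TCR line lies above the CD3 line, and in Main2 the lines nearly meet at the right; at 28 tags TCR reached 95.5% and 94.7%, at 8 tags CD3 reached 81.5% and 87.6%.

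Within T droplets the number of tags went up with the number of transcript UMIs but not with their CPM. In the pan-T gate the Spearman rho of the CD3 tag with the summed UMIs of the 6 genes was 0.45 in Main1 and 0.51 in Main2, and that of the TCR tag 0.47 and 0.53. Neither count is scaled to the depth of the droplet. In the same droplets the rho of the CD3 tag with the summed CPM of the 6 genes was -0.10 in Main1 and -0.17 in Main2, and that of the TCR tag -0.14 and -0.16. With tags as a share of all tags of the droplet, chosen after seeing the data, the rho with the CPM was 0.15 and 0.20 for CD3 and 0.14 and 0.25 for TCR. With the total UMIs of the droplet the rho was 0.50 and 0.60 for CD3 and 0.56 and 0.59 for TCR. Across all B-lineage-negative droplets, T and other cells together, the same rho with the CPM was 0.70 and 0.69 for CD3 and 0.72 and 0.71 for TCR. These are descriptions over droplets that share a library and differ in depth.

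**Figure D4:**
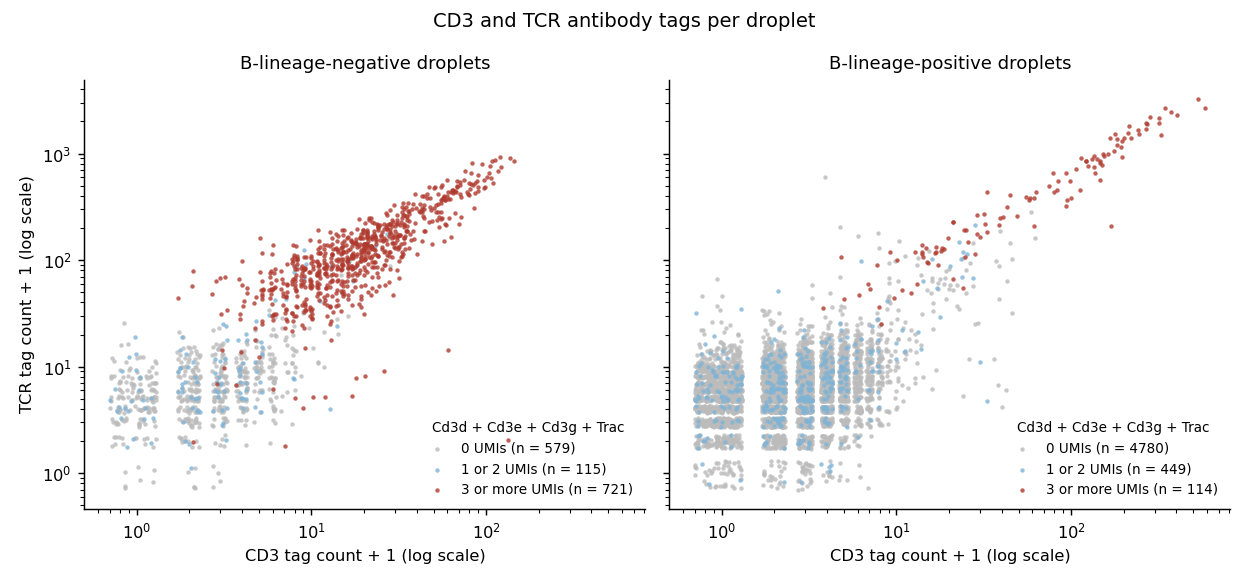
CD3 tags (x axis) and TCR tags (y axis) per droplet, each plus 1 on a log scale with a small random shift, in B-lineage-negative and B-lineage-positive droplets, coloured by the UMIs of Cd3d, Cd3e, Cd3g and Trac. Droplets with 3 or more UMIs form 1 diagonal band; among B-lineage-negative droplets a few of them lie below it, with 8 or more CD3 tags and few TCR tags.

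Among TCR-positive, B-lineage-negative droplets, none of the 6 genes was called between those with and without the CD3 call. There were 603 positive for both and 107 positive for TCR alone. Cd3d had 848 and 860 CPM in CD3-positive against 805 and 792 CPM in CD3-negative droplets, Cd3e 852 and 888 against 880 and 1195, and Cd3g 1055 and 1114 against 1153 and 1526. Trac had 785 and 757 CPM against 894 and 840, Trbc1 872 and 961 against 1037 and 1017, and Trbc2 1629 and 1776 against 1889 and 2070. Cd3g, Trac, Trbc1 and Trbc2 were thus lower in both libraries of the CD3-positive droplets, without overlap, and Cd3d was higher without overlap. How many of all tested genes separate in this way was not counted. The differences of the 6 genes did not pass, in a comparison with 71 of 4961 genes called (1.43%, 0.685% higher and 0.746% lower; edgeR), and none of the 6 had an unadjusted p under 0.05. The log2 differences ran from -0.24 (Cd3g, SE 0.132) to 0.14 (Cd3d, SE 0.145), which does not show that the levels are equal. A UMI of the 6 genes was found in 99.5% of CD3-positive and 98.1% of CD3-negative droplets.

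The CD3-positive droplets were deeper in every count. They had medians of 2550 UMIs, 3954 tags of all antibodies, 128 TCR tags and 19 CD3 tags, against 1913 UMIs, 2307 tags, 54 TCR tags and 5 CD3 tags in the droplets positive for TCR alone. All 4 tested myeloid genes were lower in CD3-positive droplets: S100a8, a neutrophil alarmin subunit, had 100.4 and 133 CPM against 3240 and 2685 CPM, and the droplets included 3 Ly6G-positive ones of 603 and 3 of 107. Of 8 tested NK genes 2 were lower, Gzma with 82.2 and 258 CPM against 443 and 769 CPM, and Tyrobp, an adaptor of activating receptors, with 110 and 115 against 184 and 414 CPM. Of 8 tested B genes 2 were called: Ighm was higher, with 629 and 2120 against 443 and 497 CPM, while Igkc differed in opposite directions by library, with 1060 and 9608 against 12905 and 1845 CPM. Summed over each list, myeloid genes had 599 and 576 CPM in CD3-positive against 7053 and 5666 CPM in CD3-negative droplets, NK genes 930 and 1308 against 1589 and 2626 CPM, and B genes 2651 and 13126 against 14290 and 3702 CPM. The part of these genes in the comparison was not tested. Of 15 pan-T genes, Satb1 (log2 1.07, adjusted p = 0.0120) and Bcl11b (0.81, adjusted p = 0.0343, edgeR), both regulators of T-cell gene expression, were higher in CD3-positive droplets. Of 25 tested proximal signalling genes none was called, and none had an unadjusted p under 0.05.

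The reverse case, CD3-positive and TCR-negative, had 27 droplets, 7 in Main1 and 20 in Main2, too few in Main1 for a test under the minimum of 10 droplets. Its markers were mixed. The 8 erythroid genes summed to 208 and 182 CPM in droplets positive for both against 296333 and 34373 CPM in those positive for CD3 alone (Main1 and Main2). The B genes summed to 2651 and 13126 against 3543 and 95573 CPM, and the myeloid genes to 599 and 576 against 2465 and 34856 CPM. Their part in the values that follow was not tested. Trac had 785 and 757 CPM in droplets positive for both against 924 and 125 CPM in droplets positive for CD3 alone (Main1 and Main2), and Trbc1 872 and 961 against 308 and 249 CPM. Trbc2 had 1629 and 1776 CPM against 2619 and 296 CPM. In Main1 a single droplet held 10 of the 12 Trac UMIs and 17 of the 34 Trbc2 UMIs. The log2 ratio of the pooled CPM plus 10 was 1.79 for Trbc1, 1.53 for Trac and 1.30 for Trbc2, against 1.12 for Cd3d, 0.66 for Cd3g and 0.48 for Cd3e. In Main1 it was below 0 for Cd3e, Trac and Trbc2, and in Main2 above 0 for all 6. Set against each other, droplets with TCR alone exceeded those with CD3 alone by 1.95 for Trbc1, 1.71 for Trac, 1.50 for Trbc2, 1.02 for Cd3d, 0.90 for Cd3g and 0.67 for Cd3e, with values below 0 in Main1 for Cd3e, Trac and Trbc2. With the mixture set on a log-ratio within each droplet, the numbers turned round: 14 droplets in Main1 and 9 in Main2 were positive for TCR alone and 55 and 92 for CD3 alone, and a test of the last was possible. All 6 genes were then higher in droplets positive for both, by 2.44 (Cd3e) to 3.47 (Trac), where edgeR called 943 of 6987 genes (461 higher and 482 lower). Of the droplets then positive for CD3 alone, 111 had 0 UMIs of Cd3d, Cd3e, Cd3g and Trac, and 21 had 3 or more. Most of that group thus lacked these transcripts, and the difference does not compare T droplets with T droplets.

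The 27 droplets divided by the receptor genes they held. In 9 there was a UMI of Trdc, Tcrg-C1, Tcrg-C2 or Tcrg-C4 (1 in Main1, 8 in Main2), with 45 Trdc UMIs in all. These droplets also held 34 UMIs of Cd3e, 38 of Cd3g, 15 each of Cd3d, Trbc1 and Trbc2, 5 of Trac and 107 of Lyz2. Their CD3 tags ran from 9 to 133 with a median of 17, and their TCR tags from 1 to 17 with a median of 7. Another 9 held UMIs of the 6 genes and no gamma-delta UMI, with 71 Lyz2 UMIs and a median of 23 TCR tags, under the limit of 28. That median was 24 in the 5 droplets of Main1 and 8.5 in the 4 of Main2. The last 9 held neither, and had 432 Lyz2 UMIs; 3 of the 27 were Ly6G-positive and 2 Ter119-positive. Taken from the transcripts instead, 12 B-lineage-negative droplets had 2 or more gamma-delta UMIs, a Cd3 UMI and 0 Trac UMIs; 6 were positive for CD3 alone, 2 for both, none for TCR alone and 4 for neither. The 2 of these in Main1 were negative for both, with a median of 3 CD3 tags, so the calls rest on the 10 in Main2. Of 27 droplets with 2 or more UMIs of both kinds, 25 were positive for both antibodies, 1 for TCR alone and 1 for CD3 alone. Of 380 droplets with 2 or more Trac and 0 gamma-delta UMIs, 3 were positive for CD3 alone, 322 for both, 50 for TCR alone and 5 for neither. Their median was 126 TCR tags, against 5 in the 12 gamma-delta droplets. This division was made after the values had been seen.

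Droplets positive for B-lineage antigens carried these antibodies and transcripts too. There were 173 positive for both CD3 and TCR, 40 for TCR alone and 75 for CD3 alone, against 5055 negative for both. In the 40 with TCR alone all 6 genes were higher than in droplets negative for both, in a comparison with 107 of 8500 genes called (1.26%, 0.365% higher and 0.894% lower; edgeR). Trbc2 had 339 and 414 CPM against 27.4 and 22.9 CPM (log2 3.69, SE 0.396, adjusted p = 1.27e-17). Cd3e had 318 and 132 CPM against 10.2 and 8.90 CPM (4.28, adjusted p = 2.84e-08) and Cd3g 191 and 282 against 11.3 and 11.7 CPM (4.14, adjusted p = 2.50e-09). Trbc1 stood at 3.69, Trac at 3.38 (adjusted p = 0.0280) and Cd3d at 2.70 (adjusted p = 0.0473, edgeR), the last from 1 UMI in Main1 and 10 in Main2. DESeq2 did not call Cd3d (adjusted p = 0.789). The median log2 difference over all tested genes was -0.37. The transcripts sat in 13 of the 40 droplets (32.5%, interval 18.6 to 49.1), against 14.9% of droplets negative for both.

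These 40 droplets held other lineages as well. Of 5 tested erythroid genes 4 were called higher (Hba-a2 at 38132 and 10598 CPM against 301 and 382 CPM), as were 5 of 10 tested myeloid genes and 4 of 7 NK genes. In Main1, however, S100a8 (127 against 292 CPM), S100a9 (63.6 against 203 CPM) and Tyrobp (84.8 against 106 CPM) were lower. They were higher in Main2 only, while the other called genes of these lists were higher in both libraries. Of the 40 droplets 13 were Ter119-positive and 8 Ly6G-positive. Without Ly6G- or Ter119-positive droplets 34 genes were called, and of the 6 Cd3e, Cd3g and Trbc2 remained (adjusted p of 0.0181, 0.0115 and 0.00243), while Cd3d (0.256), Trac (0.209) and Trbc1 (0.0545, edgeR) did not pass. The log2 differences were larger there, at 3.35 to 4.85. With droplets under 4000 UMIs only, no gene was called and the 6 stood at 1.68 to 4.01.

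For CD3 alone on B-lineage droplets none of the 6 genes was called. Each gene had 0 to 3 UMIs in a library of these droplets, so a difference could hardly have been detected at this depth. The highest level in either library was that of Trbc1 in Main2, from 3 UMIs, against 13.6 CPM in droplets negative for both, and log2 differences ran from -1.73 (Cd3d, SE 1.31) to 0.73 (Trbc1, SE 0.811). None of the 6 had an unadjusted p under 0.05, where 17 of 8533 genes were called (0.199%, 0.0703% higher and 0.129% lower; edgeR); DESeq2 called 4 genes. With the mixture set on a log-ratio within each droplet the log2 difference was 1.30 for Cd3e, 0.90 for Cd3d and 0.81 for Trac, again without a call. A UMI of the 6 was found in 15 of 75 droplets (20.0%, interval 11.6 to 30.8) against 14.9% of those negative for both. After thinning each droplet to 1100 UMIs the shares were 6.67% and 9.10%. The CD3 tags of these droplets had a median of 9, near the limit of 8, and their total tags a median of 5752 against 3246.

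The 173 B-lineage droplets positive for both antibodies divided by depth. The 129 with a UMI of the 6 genes had medians of 5669 UMIs, 14636 tags and 23 of 30 antibodies positive, with 44 CD3 and 256 TCR tags. The 44 without one had medians of 2101.5 UMIs, 6932.5 tags and 20.5 antibodies positive, with 17.5 CD3 and 63 TCR tags. Pooled, the 173 had 56.4 to 71.9% of the pan-T level of each gene. Droplets that hold more than 1 cell were not removed, and their part in these values was not tested.

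**Figure D5:**
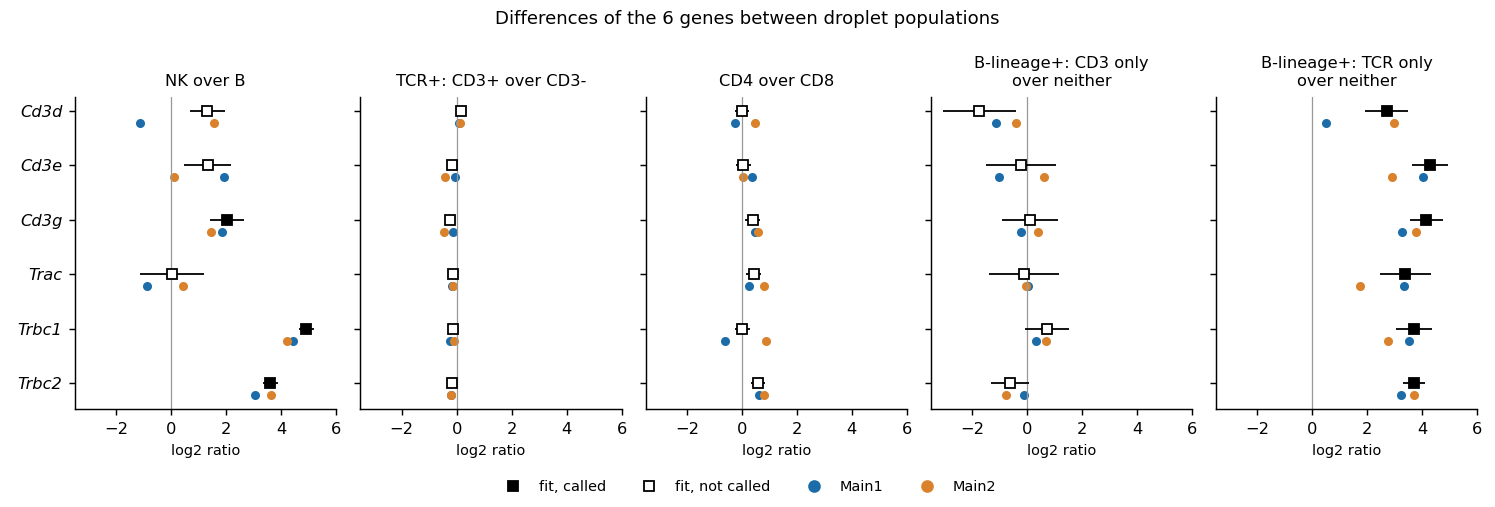
Log2 differences of the 6 genes in the 5 tested comparisons: squares give the edgeR value with its standard error, filled where called, and points the log2 ratio of CPM plus 10 in each library. All 6 are called for B-lineage droplets with TCR alone and none for those with CD3 alone; Trbc1 and Trbc2 have the largest differences of NK over B droplets.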

How the data were processed

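Polyadenylated RNA and 30 DNA-tagged antibodies were read in droplets of spleen cells. Per the submitters' processing notes, bcl2fastq and Cell Ranger 3.0.2 were run against mm10; the tag counter, the 10x chemistry and the handling of reads shared by Trbc1 and Trbc2 are not given in the sources used here. The deposited tables hold raw counts, UMI counts per gene and tag counts per antibody in each droplet. Of 11713 gene identifiers 11682 matched GENCODE vM21. Depth was 7964712 UMIs in Main1 and 10174799 in Main2. Droplets with more than 1 cell were not removed.

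Antibodies were called on log(count + 1), centred across droplets, with a mixture of 2 Gaussian components (scikit-learn 1.9.0, posterior above 0.5). UMIs were summed per library and population, and tested with edgeR 4.0.16 (R 4.3.3, TMM, quasi-likelihood, library as a block, at least 50 UMIs, Benjamini-Hochberg adjusted p under 0.05). Since each library supplied both populations compared, the block pairs them by construction. Every fit with the block had 1 residual degree of freedom. The edgeR p-values of all comparisons therefore take the spread mostly or wholly from the trend over all genes. They say little about how far the libraries differed for a single gene. Populations under 10 droplets in a library were not tested, which left out 2 of 7 planned comparisons. Library ratios are log2 ratios of CPM plus 10. Intervals are exact (Clopper-Pearson or Poisson, 95%) and cover counting error only. The fit was tested on simulated data.

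Named in each comparison were the 6 genes and, from fixed lists, up to 5 called genes with the largest log2 difference per list. The likeness rule took genes with 100 or more UMIs. The members and lists were chosen with earlier results of these data known. Alternatives were DESeq2 1.42.0, no filter on low counts, no block, each library alone, mixtures on a log-ratio within each droplet, droplets under 4000 UMIs, 10 or more NKp46 tags, and, added after the data were seen, leaving out Ly6G- or Ter119-positive droplets.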

Additional observations from a re-analysis of the deposited data

Results flagged for a closer look

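For some genes the libraries pointed in opposite directions, and the difference between the libraries was not tested. All values are log2 ratios of CPM plus 10 in Main1 and Main2. For NK over B droplets Cd3d stood at -1.14 and 1.56, with 0 and 12 UMIs in NK droplets, and Trac at -0.87 and 0.41, with 0 and 3 UMIs. For CD4 over CD8 droplets Cd3d stood at -0.24 and 0.48 and Trbc1 at -0.60 and 0.88; the CD8 gate of Main1 had 23 droplets. For B-lineage droplets with CD3 alone over those negative for both, Cd3e stood at -1.01 and 0.60, Cd3g at -0.23 and 0.40, and Trac at 0.018 and -0.046, with 0 to 2 UMIs of each in a library of the CD3-positive droplets. None of these genes passed the test in these comparisons. Other named genes did pass although their libraries pointed in opposite directions. They include Gzma for CD4 over CD8 and Igkc by CD3 among TCR-positive droplets. Ngp and S100a9 did so for NK over B, and S100a8, S100a9 and Tyrobp for TCR alone on B-lineage droplets. A passed test thus does not show that the libraries shared a direction.

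Outside the planned comparisons, Cd3d had 241 CPM in Main1 and 302 CPM in Main2 in Ly6G+ myeloid droplets, above the B gate at 12.0 and 15.9 CPM.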

How the results depend on the processing

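Counts of called genes moved by over 1.5 times in these cases. For NK over B (881 genes) DESeq2 gave 327 and 10 or more NKp46 tags gave 519. For CD4 over CD8 (49) DESeq2 gave 7, no replicate block 20, the log-ratio within droplets 85 and droplets under 4000 UMIs 3. For TCR-positive droplets by CD3 (71) DESeq2 gave 6, no replicate block 19 and droplets under 4000 UMIs 8. For B-lineage droplets with CD3 alone (17) DESeq2 gave 4, no replicate block 5, no filter 30, the log-ratio 6 and leaving out Ly6G- or Ter119-positive droplets 1. For those with TCR alone (107) DESeq2 gave 21, droplets under 4000 UMIs 0 (354 at an unadjusted p under 0.05) and leaving out Ly6G- or Ter119-positive droplets 34. Without the block NK over B gave 878. The log-ratio called 17.2% of droplets CD3-positive and 12.5% TCR-positive, against 13.1% and 13.7%; among B-lineage-negative droplets it called CD3 in 96.1% of those with 3 or more UMIs of Cd3d, Cd3e, Cd3g and Trac (83.4% before) and in 19.3% of those with 0 (2.76% before). Thinning brought the share with a UMI to 8.98% in B droplets, 6.67% in B-lineage droplets with CD3 alone and 9.10% in those negative for both.

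Directions turned only for values that had not passed. For NK over B, Trac was -0.36 with DESeq2, -0.10 with no filter, -7.57 at 10 or more NKp46 tags (0 UMIs, no bound) and -0.58 without Ly6G- or Ter119-positive droplets. For CD4 over CD8, Cd3d was -0.013 with DESeq2, -0.034 without the block and -0.15 under 4000 UMIs, Cd3e -0.062 under 4000 UMIs, and Trbc1 -0.078 without the block and -0.11 under 4000 UMIs. By CD3 among TCR-positive droplets, Trac was 0.0052 with no filter and 0.13 under 4000 UMIs, and Trbc1 0.0056 with no filter. For CD3 alone on B-lineage droplets, the log-ratio gave Cd3d 0.90, Cd3e 1.30, Trac 0.81 and Trbc2 0.31; under 4000 UMIs Cd3e was 0.36, Cd3g -0.83 and Trbc2 0.023; without Ly6G- or Ter119-positive droplets Cd3e was 0.27, Cd3g -0.017 and Trbc1 -0.15. The cause was not tested.

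With each library alone, the 6 genes ranged from -1.14 to 4.40 for NK over B, -0.60 to 0.88 for CD4 over CD8, -0.45 to 0.12 by CD3 among TCR-positive droplets, -0.68 to 2.54 by TCR among CD3-positive droplets, -0.47 to 2.76 for TCR alone over CD3 alone, -1.15 to 0.69 for CD3 alone and 0.49 to 4.02 for TCR alone on B-lineage droplets. The log-ratio left 9 droplets of TCR-positive, CD3-negative kind in Main2, so that comparison was not run under it. With 2 libraries, genes under about 50 UMIs could not be compared.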
